A study of Mus musculus with 31 samples.

Results

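The comparison described here is imipramine (IMN) against vehicle in the caudate putamen (CPu), the dorsal part of the striatum, of female Brd1+/- mice. It was formed from the labels, as all 8 IMN administered and all 7 vehicle administered Brd1+/- mice, 15 of the 31 mice of the series, with every gene of the table included. Both groups were of the strain labelled C57BL/6NTac-Brd1 and between 8 and 11 weeks old, and all 15 mice were heterozygous for a targeted deletion in Brd1 (allele tm1.2Arte), so the controls of this comparison carry it too. Vehicle was saline and IMN was given at 10 mg/kg subcutaneously on each of 2 days. Each injection preceded behavioral tests, tail suspension on the first day and open field and forced swimming on the second, so that mice of both groups had been handled and made to swim before the brain was taken. The other 16 mice were WT, 8 with vehicle and 8 with IMN, and enter below only where the effect of IMN is set beside that in Brd1+/- mice. The comparison asks what this short antidepressant treatment changed in the transcriptome of the CPu when 1 copy of Brd1, a scaffold of histone acetyltransferase complexes, was disrupted.

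Imipramine is a tricyclic compound that blocks the reuptake of noradrenaline and serotonin and also binds histamine, muscarinic and adrenergic receptors. Most neurons of the CPu are GABAergic medium spiny neurons, which carry dopamine D1 or D2 receptors. In these cells synaptic activity that reaches the nucleus through calcium, cAMP and ERK induces immediate-early genes such as Fos, Egr1 and Arc, whose transcripts appear and decay fast. Stress hormones act through the glucocorticoid receptor on another set of genes, among them Sgk1, Ddit4 and Fkbp5, in neurons and in glia.

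The labels present each library as 1 mouse of its group and say nothing of shared litters or batches, so p values measure the spread between these mice. Values are TPM, which scale each transcript to its length and to the sum of its library, and the read depth behind them is unknown. Between 22579 and 23567 genes were above 0.1 TPM in each Brd1+/- mouse. Ppp1r1b, which encodes DARPP-32, lay at 2878 to 3778 TPM (median 3324) with vehicle and 1974 to 3320.3 TPM (median 2793) with IMN, so that this defining striatal gene was high in all 15 mice. The mean log2(TPM + 1) over 22 medium spiny neuron markers spanned 7.22 to 7.37 in vehicle and 7.01 to 7.38 in IMN administered mice, with 5 of the 8 IMN mice below every vehicle mouse. Over 16 oligodendrocyte markers the mean spanned 5.33 to 6.77 in vehicle and 5.21 to 7.63 in IMN administered mice, and IMN mice 2, 4 and 7 lay above every vehicle mouse. Over 15 cortical excitatory markers the groups overlapped, at 1.85 to 3.28 and 1.73 to 3.57. Among WT mice, 6 of the 8 vehicle and 2 of the 8 IMN administered mice had a cortical mean of at least 4.13, above the highest Brd1+/- mouse at 3.57, which bears on every comparison with WT below.

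**Figure D1:**
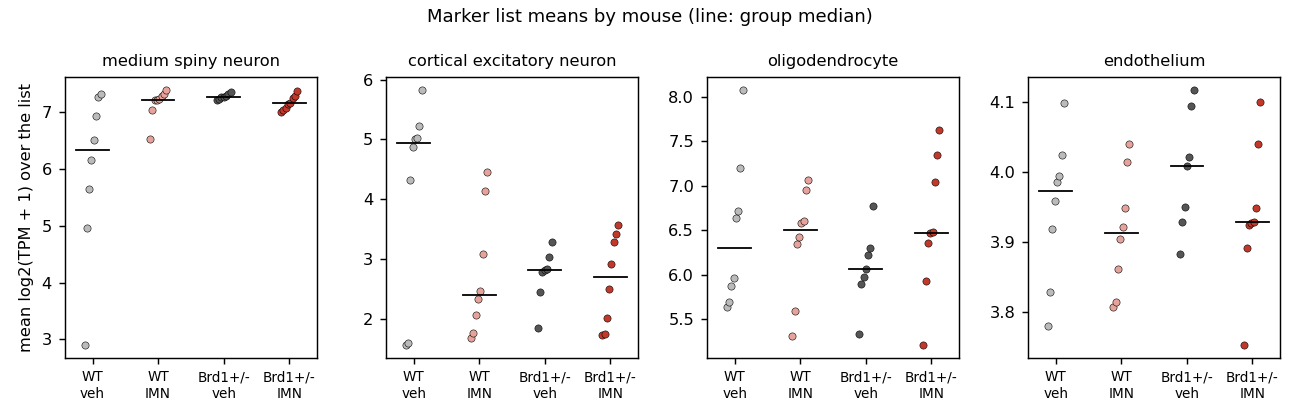
Mean log2(TPM + 1) over the medium spiny neuron, cortical excitatory neuron, oligodendrocyte and endothelium marker lists, with 1 point per mouse and a line at the group median. Both Brd1+/- groups hold high striatal and low cortical means, 3 IMN administered Brd1+/- mice stand above the vehicle mice in the oligodendrocyte list, and 6 vehicle administered WT mice stand apart in the cortical list.

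A small set of genes passed a nominal limma p under 0.01 for IMN against vehicle in Brd1+/- mice. Among them were 7 immediate-early genes, all lower (23.3% of those tested), and 10 glucocorticoid-responsive genes, all higher (41.7%), against 1.83% of all genes. Both lists were chosen with earlier results of these data known. Without IMN mice 2, 4 and 7, those with high oligodendrocyte markers, the counts of 7 and 10 were 4 and 5. That fit had fewer mice, and 301 genes passed in it in place of 422. Of 23020 genes tested with limma, 422 (1.83%) passed the nominal threshold of p under 0.01, 200 (0.869%) higher and 222 (0.964%) lower with IMN. Below, a gene is said to rise, fall or change only where it passed this threshold. At an FDR of 5% there were 0 genes by limma, while 1633 genes (7.09%) had an unadjusted p under 0.05. The smallest adjusted p was 0.072, and 4 genes (0.0174%) had an adjusted p under 0.1, namely Depp1, Egr1, Tmem114 and Arc. Tmem114, a transmembrane protein gene named after its values were seen, fell from a median of 1.38 TPM (0.810 to 1.74) to 0.570 TPM (0.331 to 0.812). Most changes were modest. The median log2 difference was 0.43 among the genes that rose and −0.35 among those that fell, against 0.01 over all genes tested, and 16 of the 422 genes exceeded 1 in size. Protein-coding genes made up 321 of the 422, with 132 higher and 189 lower. In 23 genes (0.0999%) the values of both groups did not overlap, 6 of them higher (0.0261%) and 17 lower (0.0738%). In tissue such as this, fewer cells of a type and less RNA per cell cannot be told apart.

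**Figure D2:**
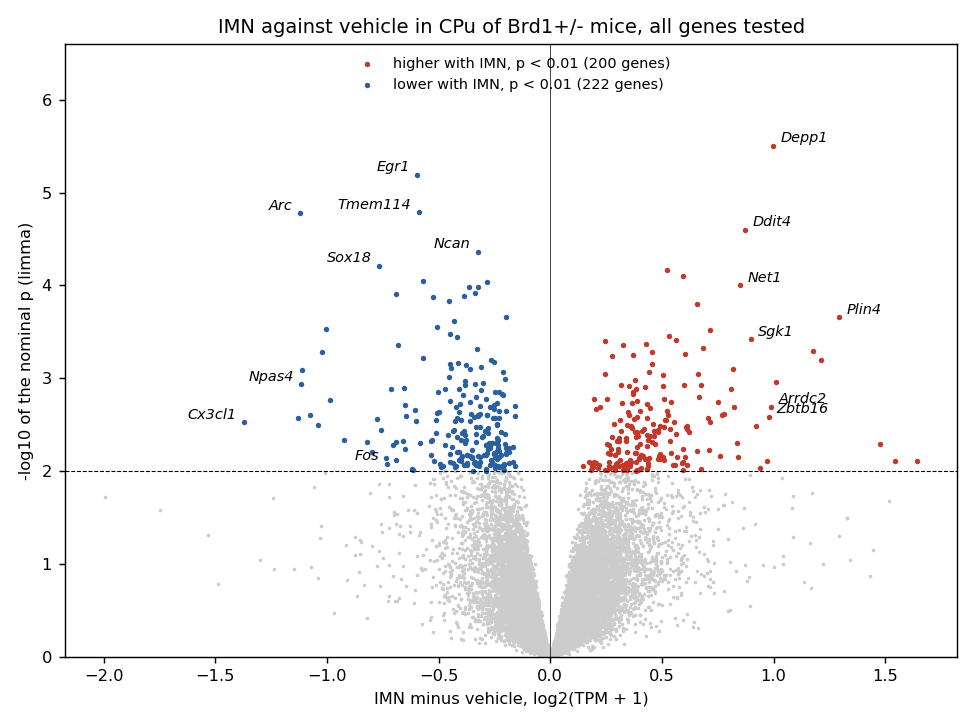
IMN minus vehicle difference of 23020 genes in Brd1+/- CPu on the log2(TPM + 1) scale against −log10 of the limma p, with the dashed line at the threshold of 0.01 and genes past it in color. Depp1, Egr1, Tmem114, Arc and Ddit4 lie highest, and all but 16 of the 422 colored genes lie within 1 of 0 in difference.

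The immediate-early genes that changed were all lower with IMN. Of the 30 members tested, 7 fell and 0 rose (23.3% called, against 1.83% of all genes), and 22 lay below 0, with a median log2 difference of −0.13 against 0.01 over all genes tested. This list and the glucocorticoid-responsive list were chosen with earlier results of these data known, so that their shares called are a description and no independent evidence of a direction. The mean over the list spanned 3.79 to 4.62 on the log2 scale with vehicle and 3.87 to 4.17 with IMN, so that the IMN mice lay within the vehicle range. The members that fell were Egr1, Arc, Dusp6, Npas4, Klf4, Nr4a1 and Fos. Egr1, a zinc finger transcription factor induced by synaptic activity and ERK signaling, spanned 181 to 288 TPM (median 244) in vehicle administered mice and 135 to 179.8 TPM (median 150.5) in IMN administered mice. Every IMN mouse lay below every vehicle mouse. The log2 difference was −0.60 ± 0.09 (SE, limma adjusted p = 0.074). Arc (chr15:74669083-74672570, GRCm38), whose product controls endocytosis of AMPA receptors at synapses, spanned 80.98 to 206 TPM (median 115) with vehicle and 37.3 to 73.4 TPM (median 58.4) with IMN. Again no IMN mouse reached the lowest vehicle mouse, and the mean fell to 45.1% of the vehicle mean. The log2 difference was −1.12 ± 0.19 (SE, limma adjusted p = 0.0967).

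Npas4 (chr19:4984355-4990316), an activity-dependent transcription factor of neurons, spanned 15.03 to 63.5 TPM (median 23.4) with vehicle and 6.93 to 20.8 TPM (median 11.9) with IMN. The groups overlapped, with 6 of 8 IMN mice below every vehicle mouse and 1 vehicle mouse far above the others, and the log2 difference was −1.12 ± 0.28 (SE, limma adjusted p = 0.37). Dusp6, the phosphatase that switches off ERK, spanned 24.7 to 39.02 TPM (median 32.6) with vehicle and 18.5 to 27.9 TPM (median 23.7) with IMN. Here too 6 of 8 IMN mice lay below the vehicle range, with a log2 difference of −0.45 ± 0.10 (SE, limma adjusted p = 0.282). Fos (chr12:85473890-85477273), a subunit of the transcription factor AP-1, was low in both groups, at 4.82 to 16.9 TPM (median 8.45) with vehicle and 2.66 to 9.46 TPM (median 5.26) with IMN. Its log2 difference of −0.73 ± 0.24 (SE, limma adjusted p = 0.526) rested on groups that overlapped widely, and it passed in 4 of 15 fits that left out 1 mouse and in 9 of 14 alternatives. Nr4a1, an orphan nuclear receptor, had medians of 114 and 75.9 TPM (log2 difference −0.53 ± 0.16, SE, limma adjusted p = 0.475), and Klf4, a zinc finger factor, medians of 4.30 and 2.79 TPM (log2 difference −0.42 ± 0.13, SE, limma adjusted p = 0.462). In both, 2 of 8 IMN mice lay below the vehicle range. Another 6 members, Nptx2, Egr2, Dusp1, Egr3, Ier5 and Egr4, lay between −0.46 and −0.28 and did not pass the threshold, though each had an unadjusted p under 0.05. Not all members pointed this way. Junb, another AP-1 subunit, had medians of 79.2 and 75.8 TPM (log2 difference −0.03 ± 0.15, SE, limma adjusted p = 0.982), and its sign turned without vehicle mouse 6 or 7 and with an endothelial covariate. Fosb had medians of 12.01 and 12.5 TPM (log2 difference 0.24, limma adjusted p = 0.899), with IMN mouse 3 at 31.1 TPM above all the others. The synaptic scaffold gene Homer1 was at −0.01 and Jun at −0.02 on the log2 scale.

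**Figure D3:**
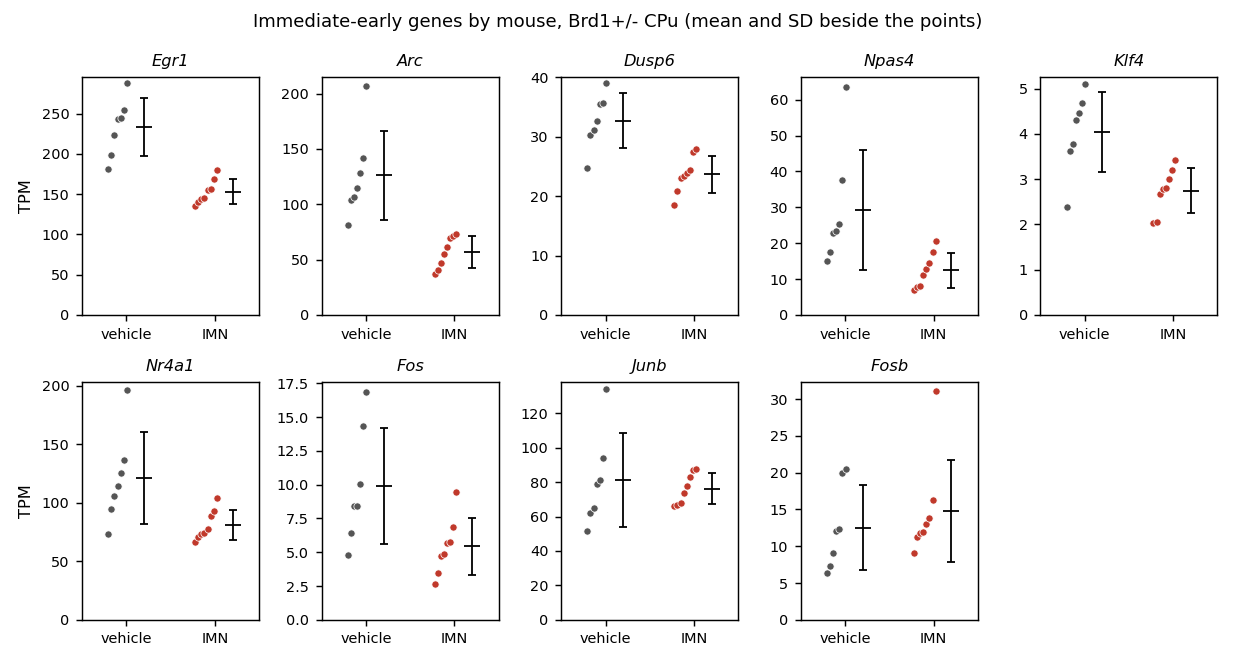
TPM of immediate-early genes that passed the threshold, and of Junb and Fosb, which did not, in each Brd1+/- mouse, with the group mean and SD beside the points. Egr1 and Arc are separated without overlap, the others that passed are lower with overlap, and Junb and Fosb overlap throughout.

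Promoter sequences are shown for Fos and Npas4 because both fell and their windows hold TGACG, the core of the cAMP response element to which CREB binds. They are RefSeq windows on GRCm38.p6, from 250 bases before to 50 bases after the annotated start, in lower case with TGACG in capitals on either strand (its reverse complement reads CGTCA).
Fos, chr12:85473640-85473939, plus strand: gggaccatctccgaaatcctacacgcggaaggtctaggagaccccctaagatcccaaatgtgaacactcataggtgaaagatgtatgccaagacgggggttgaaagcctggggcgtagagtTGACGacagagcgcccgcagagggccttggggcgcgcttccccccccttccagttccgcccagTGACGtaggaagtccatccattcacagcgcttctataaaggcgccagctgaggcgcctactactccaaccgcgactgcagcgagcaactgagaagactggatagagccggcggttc
Npas4, chr19:4989922-4990221, minus strand: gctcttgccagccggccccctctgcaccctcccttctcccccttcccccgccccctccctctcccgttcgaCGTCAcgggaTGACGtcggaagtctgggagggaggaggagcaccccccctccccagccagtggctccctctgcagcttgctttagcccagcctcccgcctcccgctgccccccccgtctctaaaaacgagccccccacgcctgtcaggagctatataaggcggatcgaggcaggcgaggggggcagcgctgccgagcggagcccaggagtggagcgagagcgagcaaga
In Fos the core lies 129 to 125 and 66 to 62 bases before the start, and in Npas4 179 to 175 and 169 to 165 bases before it. Windows were held for 5 of the 7 immediate-early genes that fell, and 4 of them, all but that of Dusp6, contained TGACG on either strand, where 6837 of 32851 promoters (20.8%) contain it. The full element, TGACG followed by TCA, was in 0 of the 5 windows and in 588 of all promoters (1.79%). The CArG box, to which serum response factor binds, was in 0 of the 5 and in 535 of all promoters (1.63%). Such matches describe the letters of these windows and not binding. Arc and Egr1 were not among them.

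The glucocorticoid-responsive genes that changed were all higher with IMN. Of the 24 members tested, 10 rose and 0 fell (41.7% called, against 1.83% of all genes), and 21 lay above 0, with a median log2 difference of 0.37 against 0.01 over all genes tested. The mean over the list spanned 3.78 to 4.16 with vehicle and 3.96 to 4.78 with IMN, with 7 of 8 IMN mice above every vehicle mouse. The highest means, 4.78, 4.65 and 4.61, were those of IMN mice 2, 7 and 4, which also lay above every vehicle mouse in the oligodendrocyte list. Depp1 (chr6:116650609-116652794), a regulator of autophagy that FOXO factors induce, was low, at 0.399 to 1.18 TPM (median 0.962) with vehicle and 1.56 to 3.80 TPM (median 2.51) with IMN. The groups did not overlap, and the mean rose 3.15-fold. On the log2(TPM + 1) scale, which understates the change of so low a gene, the difference was 1.00 ± 0.14 (SE, limma adjusted p = 0.072), the smallest of all genes tested. Ddit4 (chr10:59949669-59951834), an inhibitor of mTORC1 also called REDD1, spanned 14.7 to 23.9 TPM (median 18.6) with vehicle and 21.99 to 50.2 TPM (median 33.8) with IMN. Only the lowest IMN mouse lay within the vehicle range, and the log2 difference was 0.87 ± 0.15 (SE, limma adjusted p = 0.115).

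Sgk1 (chr10:21882184-21999903), the serum- and glucocorticoid-regulated kinase, spanned 64.1 to 95.7 TPM (median 85.4) with vehicle and 89.1 to 283 TPM (median 149) with IMN. Again 7 of 8 IMN mice lay above every vehicle mouse, with a wide spread among them, and the log2 difference was 0.90 ± 0.20 (SE, limma adjusted p = 0.285). Plin4 (chr17:56100591-56109803), a coat protein of lipid droplets, spanned 0.391 to 2.54 TPM (median 1.31) with vehicle and 2.11 to 9.43 TPM (median 4.74) with IMN. Its log2 difference, 1.29 ± 0.27 (SE, limma adjusted p = 0.231), was the largest of the list, and 7 of 8 IMN mice lay above every vehicle mouse. The others that rose were Cdkn1a, the cyclin-dependent kinase inhibitor p21 (log2 difference 0.60), Sult1a1, a phenol sulfotransferase (0.54), Arrdc2, an alpha-arrestin (0.99), Zbtb16, a zinc finger factor (0.98), Nfkbia, the inhibitor of NF-kappa B (0.48), and Errfi1, an inhibitor of EGF receptor signaling (0.35). In these 6 genes 5 to 7 of the 8 IMN mice lay above every vehicle mouse, and the limma adjusted p ran from 0.307 to 0.526. The receptors themselves did not pass, Nr3c1 (the glucocorticoid receptor) at −0.14 and Nr3c2 (the mineralocorticoid receptor) at 0.10 on the log2 scale. Neither did Fkbp5, a co-chaperone of the receptor and a known hormone target, with medians of 23.8 and 25.2 TPM (log2 difference 0.11 ± 0.08, SE, limma adjusted p = 0.814), nor Tsc22d3, also known as GILZ, with medians of 43.8 and 42.9 TPM (log2 difference 0.15, limma adjusted p = 0.95), whose sign turned with the oligodendrocyte mean as a covariate, without IMN mice 2, 4 and 7 and without vehicle mouse 6. Dusp1 stands in both lists and had a log2 difference of −0.39 (limma adjusted p = 0.606).

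**Figure D4:**
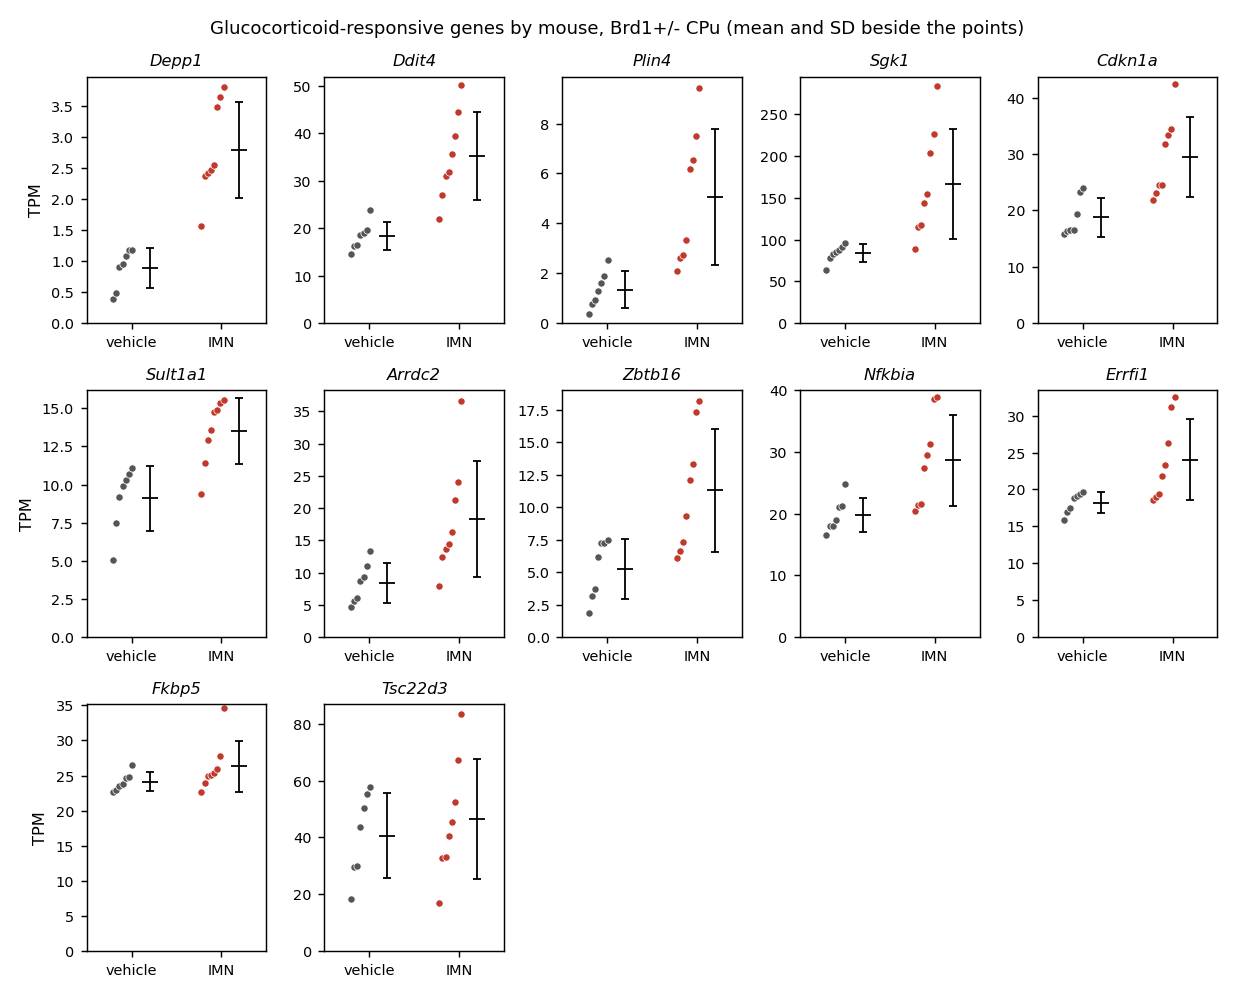
TPM of glucocorticoid-responsive genes that passed the threshold, and of Fkbp5 and Tsc22d3, which did not, in each Brd1+/- mouse, with the group mean and SD beside the points. Depp1 is separated without overlap, and in Ddit4, Sgk1 and Plin4 1 IMN administered mouse lies within the vehicle range.

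An Sgk1 promoter is shown because, of these genes, only Sgk1 had a window with the palindromic glucocorticoid response element, searched as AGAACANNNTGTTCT (the same on both strands) and given in capitals.
Sgk1, chr10:21993640-21993939, plus strand: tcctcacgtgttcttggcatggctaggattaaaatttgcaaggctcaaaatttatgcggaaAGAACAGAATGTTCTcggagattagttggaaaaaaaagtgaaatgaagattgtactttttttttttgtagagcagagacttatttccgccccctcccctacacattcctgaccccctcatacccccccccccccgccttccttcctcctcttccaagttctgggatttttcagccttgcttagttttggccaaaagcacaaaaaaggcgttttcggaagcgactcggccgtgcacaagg
The match lies 189 to 175 bases before the start, in 1 of the 6 Sgk1 windows of the table. Windows were held for 9 of the 10 genes that rose, 16 windows in all, and the element was in 1 of them and in 3 of all 32851 promoters (0.00913%). TGACG was in 2 of the 16 windows, 1 of Sgk1 and 1 of Errfi1, and the latter held the full cAMP response element. Zbtb16 was not among them. The absence of these letters says only that they are not in these windows.

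In the oligodendrocyte list 0 of 16 members passed the threshold, though all 16 lay above 0, with a median log2 difference of 0.49. Mbp, the myelin basic protein gene, spanned 189 to 558 TPM (median 379.7) with vehicle and 254 to 1335 TPM (median 491) with IMN (log2 difference 0.56 ± 0.34, SE, limma adjusted p = 0.776). Without IMN mice 2, 4 and 7, whose oligodendrocyte means were 7.63, 7.04 and 7.35, 301 genes passed. The log2 difference without them was 0.88 ± 0.15 (SE) for Depp1, 0.68 ± 0.14 (SE) for Ddit4 and 0.54 ± 0.13 (SE) for Sgk1. It was −1.27 ± 0.21 (SE) for Arc and −0.62 ± 0.10 (SE) for Egr1. Sult1a1, Arrdc2, Zbtb16, Nfkbia and Errfi1 did not pass there, at 0.15 to 0.66. With the oligodendrocyte mean as a covariate 7 glucocorticoid-responsive genes rose, and with the medium spiny neuron mean as a covariate 6 rose. The lists of other cell types held at most 1 call each. The calls were 0 of 14 (median −0.08) in the microglia list, 0 of 14 (median 0.09) in the astrocyte list and 0 of 10 (median 0.13) in the oligodendrocyte precursor list. They were 0 of 15 (median 0.02) in the striatal interneuron list, 0 of 15 (median −0.04) in the cortical list and 0 of 12 (median −0.13) in the mural and fibroblast list. In the microglia list 11 of 14 members lay below 0, and its mean, 4.49 to 4.86 with vehicle and 4.30 to 4.66 with IMN, placed 4 of 8 IMN mice below every vehicle mouse. In the mural and fibroblast list 11 of 12 members lay below 0, and 3 of 8 IMN mice had a mean below every vehicle mouse. The oligodendrocyte, microglia and mural lists each had 2 members at an unadjusted p under 0.05. The choroid plexus and ependyma list had 0 of 7 (median 0.04) and the erythroid list 0 of 5 (median −0.11). In the endothelium list 1 of 13 fell (7.69% called, against 1.83% of all genes, list median −0.09), Kdr, a VEGF receptor (log2 difference −0.35, limma adjusted p = 0.52), which passed in 7 of 15 fits that left out 1 mouse and in 9 of 14 alternatives.

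Other genes rose as well. Pik3ip1, an inhibitor of PI3-kinase, spanned 13.5 to 18.4 TPM (median 15.5) with vehicle and 18.2 to 27.95 TPM (median 23.4) with IMN, a log2 difference of 0.52 ± 0.10 (SE, limma adjusted p = 0.171). Selenop, the plasma selenium carrier that is also made in brain, spanned 149 to 226 TPM (median 185) with vehicle and 207 to 372 TPM (median 278) with IMN, a log2 difference of 0.59 ± 0.11 (SE, limma adjusted p = 0.171). Txnip, which binds thioredoxin and limits glucose uptake, went from a median of 11.6 to 19.2 TPM (log2 difference 0.66 ± 0.13, SE, limma adjusted p = 0.181). In these 3 genes 7 of the 8 IMN mice lay above every vehicle mouse. Net1, an activator of RhoA, rose from a median of 9.44 to 17.4 TPM (log2 difference 0.85 ± 0.17, SE, limma adjusted p = 0.171), Ptgr2, a prostaglandin reductase, from 17.1 to 25.5 TPM (0.53) and Tcp11l1 from 2.50 to 5.05 TPM (0.56). Sgpp1, a phosphatase of sphingosine 1-phosphate, changed little but without overlap, at 15.1 to 17.3 TPM (median 16.8) with vehicle and 18.5 to 22.3 TPM (median 19.7) with IMN. Siah3 and Cuedc1 were also free of overlap, with medians of 0.809 and 1.65 TPM for Siah3 and 6.64 and 8.17 TPM for Cuedc1.

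Other genes fell as well. Ncan (chr8:70093085-70120873), which encodes the chondroitin sulfate proteoglycan neurocan, spanned 54.6 to 66.9 TPM (median 59.5) with vehicle and 42.7 to 53.8 TPM (median 47.7) with IMN. The groups did not overlap, and the log2 difference was −0.32 ± 0.06 (SE, limma adjusted p = 0.166). Got1, the cytosolic aspartate aminotransferase, also fell without overlap, from a median of 204 to 171 TPM (log2 difference −0.29 ± 0.06, SE, limma adjusted p = 0.171). The same held, by their medians, for Srpk1, a kinase of splicing factors (49.5 to 37.8 TPM), D5Ertd579e (34.6 to 26.8 TPM) and Dio2, the deiodinase that activates thyroid hormone (26.96 to 20.2 TPM). Ncan was the 1 of 15 perineuronal net and lectican genes that changed (6.67% called, against 1.83% of all genes, list median 0.02). Pdp1, which activates pyruvate dehydrogenase, fell from a median of 126 to 101 TPM and Synpo, an actin-binding protein of the spine apparatus, from 92.5 to 72.4 TPM, each with 7 of 8 IMN mice below the vehicle range. Sox18 (chr2:181669836-181671640), an endothelial transcription factor, fell from a median of 9.31 to 5.81 TPM (log2 difference −0.77 ± 0.14, SE, limma adjusted p = 0.171). Gpr3, a receptor that activates Gs without ligand, fell from 7.81 to 4.25 TPM, Klf10, a zinc finger factor, from 12.3 to 7.74 TPM and S100a3, a calcium-binding protein, from 1.99 to 0.800 TPM. Cx3cl1, the neuronal chemokine fractalkine, had a log2 difference of −1.37 ± 0.39 (SE, limma adjusted p = 0.416). Its values spanned 170.2 to 721 TPM (median 662) with vehicle and 128 to 641 TPM (median 149) with IMN. They fell on separate levels rather than around 1 mean, with 6 of 7 vehicle mice at the upper level and 6 of 8 IMN mice at the lower, and whether these levels measure expression of the gene was not tested. It was the 1 of 19 cytokine and interferon response genes tested that changed (5.26% called, against 1.83% of all genes, list median −0.04).

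Neurotransmitter signaling genes changed in small number. In the dopamine receptor signaling list 2 of 20 fell (10% called, against 1.83% of all genes), with a list median of −0.15 and 17 members below 0. Drd1, the D1 receptor, spanned 162 to 195 TPM (median 183) with vehicle and 141 to 173 TPM (median 159) with IMN (log2 difference −0.19 ± 0.06, SE, limma adjusted p = 0.516). Rgs2, which speeds the inactivation of Gq, spanned 92.4 to 124 TPM (median 103) with vehicle and 61.98 to 101 TPM (median 67.1) with IMN (log2 difference −0.51 ± 0.11, SE, limma adjusted p = 0.266). Drd1 was also the 1 of 22 medium spiny neuron markers that changed (4.55% called, against 1.83% of all genes). Of these markers 19 lay below 0 and 6 had an unadjusted p under 0.05, all 6 lower, with a list median of −0.10. In this list Drd2, the D2 receptor, at −0.25 (limma adjusted p = 0.585) and Ppp1r1b at −0.26 (limma adjusted p = 0.644) did not pass. With the mean of that list as a covariate Drd1 was at −0.09 ± 0.05 (SE) and did not pass. That mean includes Drd1 itself and so takes up part of its difference, and this fit cannot tell whether Drd1 differed beyond the list. In the Gq signaling list 3 of 39 fell (7.69% called, against 1.83% of all genes, list median −0.10), Rgs2, Chrm1, the muscarinic M1 receptor (median 54.3 to 41.2 TPM, log2 difference −0.38), and Calm2, a calmodulin gene (median 1497 to 1339.9 TPM, log2 difference −0.20). Chrm1 was the 1 of 16 adrenergic, histamine and muscarinic receptors that changed (6.25% called, against 1.83% of all genes, list median −0.02). Pde2a, a phosphodiesterase, was the 1 of 44 genes of cAMP, PKA and CREB signaling (2.27% called, near the 1.83% of all genes, list median −0.04), with a log2 difference of −0.20. Of 15 fits that left out 1 mouse, Rgs2 passed in 15, Chrm1 in 14, Calm2 in 9, Drd1 in 8 and Pde2a in 7, and of 14 alternatives in 13, 11, 10, 9 and 6.

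Of the genes closest to the targets of IMN, the serotonin transporter Slc6a4 was listed at 0 in all 15 mice and the noradrenaline transporter Slc6a2 lay at 0 to 0.0287 TPM. The cell bodies that make both lie in the brainstem. Of 10 monoamine transport and metabolism genes tested, 1 changed (10% called, against 1.83% of all genes, list median 0.00). This was Ddc, the aromatic amino acid decarboxylase, at 2.33 to 5.72 TPM (median 4.31) with vehicle and 4.49 to 11.2 TPM (median 6.66) with IMN, a log2 difference of 0.61 ± 0.18 (SE, limma adjusted p = 0.437). Of the serotonin receptors, 0 of 11 (median 0.09) changed, with Htr1b at −0.27 (limma adjusted p = 0.625). Of the potassium channel genes 3 of 79 fell (3.8% called, against 1.83% of all genes, list median 0.03), Kcnh4 (−0.41), Kcnj2 (−0.28) and Kcnip2 (−0.22). Leaving out 1 mouse at a time, Kcnh4 passed in 15 of 15 fits, Kcnj2 in 9 and Kcnip2 in 6, and under the 14 alternatives in 11, 10 and 8. Calls were 0 of 18 (median −0.02) in neurotrophin and GDNF signaling, 0 of 25 (median −0.01) among glutamate receptors and 0 of 13 (median 0.04) among GABA-A receptors.

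In the heat shock and chaperone list 3 of 20 fell (15% called, against 1.83% of all genes) and 17 lay below 0, with a median log2 difference of −0.16. Hspa5, the chaperone BiP of the endoplasmic reticulum, spanned 109 to 196 TPM (median 129.8) with vehicle and 68.8 to 148 TPM (median 89.4) with IMN (log2 difference −0.58 ± 0.18, SE, limma adjusted p = 0.476). Hspa8, the constitutive HSC70, went from a median of 467 to 406 TPM (log2 difference −0.23 ± 0.08, SE, limma adjusted p = 0.519) and Dnajb5, a J-domain co-chaperone, from 182 to 139 TPM (log2 difference −0.32 ± 0.10, SE, limma adjusted p = 0.519). In the unfolded protein response list 3 of 24 fell (12.5% called, against 1.83% of all genes), Hspa5 again, the transcription factor Xbp1 (−0.47) and the disulfide isomerase Pdia4 (−0.42), while 10 members lay above 0 and the list median was −0.03. Of 15 fits that left out 1 mouse, Hspa5 and Xbp1 each passed in 9, Hspa8 in 7, Dnajb5 in 5 and Pdia4 in 4. Under the 14 alternatives Hspa5 passed in 13, Xbp1 and Dnajb5 in 10 and Hspa8 and Pdia4 in 7. Mvd was the 1 of 26 cholesterol synthesis genes that fell (3.85% called, list median −0.10), with a log2 difference of −0.51 (limma adjusted p = 0.408). Dbp, a clock output factor, was the 1 of 21 circadian clock genes (4.76% called, list median −0.07), at −0.37 (limma adjusted p = 0.519), and passed in 6 of 15 fits that left out 1 mouse and in 8 of 14 alternatives. Both shares stand against 1.83% of all genes and rest on 1 gene. Calls were 0 of 30 (median 0.06) among lysosomal genes, 0 of 13 (median 0.04) among histone deacetylases and 0 of 84 (median 0.00) in nuclear oxidative phosphorylation. They were 0 of 13 (median 0.02) for the mitochondrial genome and 0 of 86 (median 0.10) for cytosolic ribosomal proteins. Of the 86, 80 lay above 0, beside 12515 of all 23020 genes tested.

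Brd1 itself did not differ detectably between the groups. It spanned 11.1 to 16 TPM (median 13.1) with vehicle and 11.3 to 13.8 TPM (median 12.9) with IMN, and the whole IMN range lay within the vehicle range. The log2 difference was −0.06, with a two-sided exact permutation p of 0.499 over 6435 assignments of the mice, where 0.000155 is the smallest p possible. WT mice, for comparison, averaged 22.5 ± 2.97 TPM (SD, n = 8) with vehicle and 19.9 ± 2.67 TPM (SD, n = 8) with IMN. Among the 12 tested genes of its acetyltransferase complexes 1 changed (8.33% called, against 1.83% of all genes, list median −0.01), Kat6b, a catalytic subunit, which rose from a median of 20.7 to 27.1 TPM (log2 difference 0.35 ± 0.10, SE, limma adjusted p = 0.408).

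The same treatment in WT mice moved some of these genes alike and others not. Of 23579 genes tested in WT, 1639 (6.95%) passed p under 0.01, 318 (1.35%) higher and 1321 (5.6%) lower. The count was 429 without the 8 WT mice with high cortical markers, a fit that kept 2 vehicle and 6 IMN administered WT mice. These are called the kept WT mice below. At an FDR of 5% there was 1 gene (0.00424%) and at an FDR of 10% there were 3 genes (0.0127%). Of the genes that passed in Brd1+/- mice, 415 were tested in WT, where 248 had the same sign, 105 of the 196 that rose and 143 of the 219 that fell. Of the genes that rose 53.6% lay above 0 in WT, against 32.5% of the 22626 genes tested in both genotypes, and of those that fell 65.3% lay below 0, against 67.5%, so that the share among the genes that fell was near that of all genes. In 46 genes both genotypes passed, 39 with the same sign, and the 46 are 10.9% of the Brd1+/- calls and 2.81% of the WT calls. With all WT mice, Arc was nearly alike in both genotypes, at −1.13 ± 0.20 (SE, limma adjusted p = 0.119) in WT and an interaction of 0.01 ± 0.29 (SE, limma adjusted p = 0.99). Its WT vehicle values were 183 to 313 TPM in the 6 mice with high cortical markers and 126 and 101 TPM in the 2 others. The 6 kept IMN administered WT mice spanned 66.6 to 115 TPM. Ncan (−0.32), Got1 (−0.35), Sox18 (−0.55), Klf10 (−0.87), Inka2 (−0.32), Mvd (−0.73) and Dnajb5 (−0.45) also fell and Sult1a1 (0.62) and Ddit4 (0.48) also rose in WT, all as log2 differences with all mice. Among the kept WT mice, vehicle and IMN values did not overlap in Sox18, Inka2, Mvd and Ddit4. They overlapped in Ncan, Got1, Klf10, Dnajb5 and Sult1a1. Got1, for example, was at 176.5 and 196.4 TPM with vehicle and 174.5 to 194.3 TPM with IMN. With all mice, Fos fell in WT too, at −1.31 ± 0.41 (SE, limma adjusted p = 0.141). Its WT vehicle values were 15.72 to 63.73 TPM in the 6 mice with high cortical markers. In the kept WT mice Fos was at 9.56 and 5.88 TPM with vehicle. Both values lay within the range of the kept IMN mice, 3.43 to 13.99 TPM. Egr1 (−0.42), Npas4 (−0.48), Sgk1 (0.40) and Plin4 (0.77) had the same sign in WT, with all mice, without passing. In the kept WT mice Egr1 was at 221 and 187 TPM with vehicle and 141 to 264 TPM with IMN. Npas4 and Plin4 overlapped there too, while every kept IMN mouse was above both vehicle mice in Sgk1. The interactions of Egr1, Npas4, Sgk1 and Plin4, −0.18, −0.63, 0.49 and 0.52, did not pass either, which does not show that the effects were equal. In WT the immediate-early list had 8 of 30 lower (median −0.38) and the glucocorticoid-responsive list 3 of 24 higher and 1 lower (median 0.21), where 5.6% of all genes tested in WT were lower and 1.35% higher, with a median of −0.08. The immediate-early mean was 4.43 to 5.14 in WT vehicle mice with high cortical markers. In the kept WT mice it was 4.16 and 4.00 with vehicle and 3.86 to 4.38 with IMN. The glucocorticoid-responsive mean was 4.07 and 3.83 with vehicle there and 4.10 to 4.51 with IMN.

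The effect of IMN differed between the genotypes at an interaction p under 0.01 in 951 of 25394 genes (3.74%), 753 positive (2.97%) and 198 negative (0.78%). By limma 0 of them passed an FDR of 5%, and 4119 had an unadjusted p under 0.05. Without the 8 WT mice with high cortical markers, which left 2 WT vehicle mice, 145 genes passed, and with the medium spiny neuron mean as a covariate 128. Among the genes that passed in Brd1+/- mice, 91 had such an interaction, and both tests use the same Brd1+/- mice. Depp1, which rose in Brd1+/- mice, was at 0.22 ± 0.12 (SE, limma adjusted p = 0.278) in WT, an interaction of 0.77 ± 0.19 (SE, limma adjusted p = 0.261). Without the 8 WT mice it was 0.72 ± 0.25 (SE) and still passed. Zscan22, a zinc finger gene, went from a mean of 11.1 to 7.46 TPM in Brd1+/- mice and from 8.02 to 11.6 TPM in WT mice. Its interaction was −0.97 ± 0.19 (SE, limma adjusted p = 0.261), and −1.06 ± 0.25 (SE) without the 8 mice, where it passed too. Mir6976 went from a mean of 3.74 to 1.36 TPM in Brd1+/- mice and was at 0.70 ± 0.29 (SE, limma adjusted p = 0.174) in WT. Its interaction was −1.84 ± 0.45 (SE, limma adjusted p = 0.261). Without the 8 it was −1.84 ± 0.62 (SE) and passed, though the 2 kept WT vehicle mice lay far apart, at 0.31 and 5.12 TPM. Reads at a microRNA gene cannot here be told apart from those of a host transcript. Siah3 (1.29), Nelfb (1.06), a subunit of the negative elongation factor, and Shd (1.33), a signaling adapter, passed with all mice but not without the 8. Zbtb16 had an interaction of 1.71 ± 0.54 (SE, limma adjusted p = 0.261), which was 0.62 ± 0.60 (SE) without them and did not pass.

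**Figure D5:**
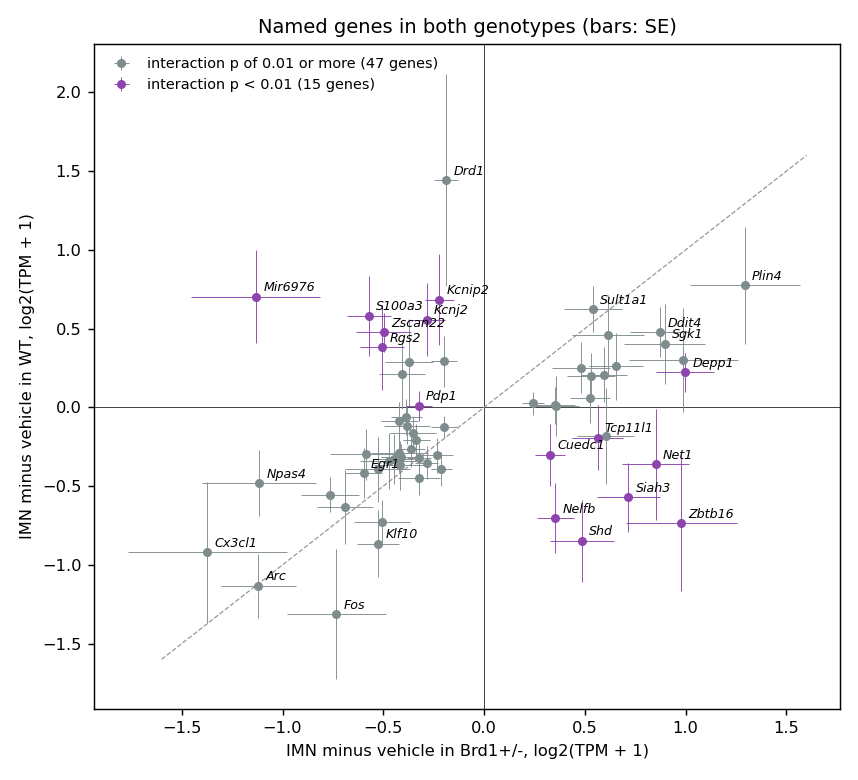
IMN minus vehicle difference on the log2(TPM + 1) scale in Brd1+/- mice (x axis) and in WT mice (y axis) for the 62 named genes that passed in Brd1+/- mice, with SE bars and a line of equal effect, and the 15 genes with an interaction past the threshold in a separate color. With all WT mice included, Arc lies on the line, and Zscan22, Mir6976, Siah3 and Zbtb16 lie in the quadrants of opposite sign.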

How the data were processed

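The tissue was a punch of the right CPu from frozen coronal slices, sequenced single-end on the BGISEQ-500. The deposited values are TPM, which the authors made from reads aligned with HISAT2 2.1.0 to GRCm38 and assembled with StringTie 1.3.4, per the submitters' processing notes. The table held 52636 genes, 52489 with a symbol, and its columns summed to 999787 to 999918 TPM. Counts were not used here, and the depth per mouse and its counting error are therefore unknown. Genes above 0.1 TPM in at least 7 mice of a comparison were tested on log2(TPM + 1) with limma 3.58.1 in R 4.3.3 (trended variance, Benjamini-Hochberg adjustment), IMN against vehicle within each genotype and as an interaction over all 4 groups. The code was tested on simulated data. Brd1 was compared with an exact permutation test.

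Genes were named if they were Brd1, among the 12 smallest p values in either direction with a mean of at least 1 TPM and a symbol that is not a predicted model, a member of 1 of 36 gene lists that passed p under 0.01 (up to 6 a list), a defining member of a list, free of overlap with the largest differences (up to 5 a direction), or among the 6 smallest interaction or joint p values. Arrdc2, Zbtb16, Nfkbia and Errfi1 fell outside this rule and were added after their values were seen, so that all 10 glucocorticoid-responsive genes that rose are named. The members and lists were chosen with earlier results of these data known. No pair of libraries held identical values. Coordinates are of GRCm38, from GENCODE M21, and promoter windows are RefSeq's on GRCm38.p6. The alternatives, given in the closing section, changed the pseudocount, filter, scaling, variance model, covariates and mice. The result of 1 list is not reported here.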

Additional observations from a re-analysis of the deposited data

Results flagged for a closer look

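In 9 of 160 groups of values examined, over 80 genes and lists, the highest or lowest Brd1+/- mouse stood far from the rest, and chance alone sets 1 in 20 such groups apart. IMN mouse 3 was highest in Siah3 (2.93 TPM, with the next mouse at 1.92), Fkbp5 (34.6 TPM, next 27.8), Fosb (31.1 TPM, next 16.3) and the choroid plexus and ependyma mean (1.44 on the log2 scale, next 0.96). In that mean vehicle mouse 6 stood apart too, at 1.15 with the next at 0.86. IMN mouse 8 was highest in S100a3 (1.18 TPM, next 0.893), and IMN mouse 2, one of those with high oligodendrocyte markers, in Txnip (29.5 TPM, next 20.3). Vehicle mouse 5 was highest in Mir6976 (7.71 TPM, next 3.79) and vehicle mouse 4 lowest in Cx3cl1 (170 TPM, next 600.1).

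The IMN effect differed between genotypes, by an interaction p under 0.01 in limma, in 15 named genes, none of them past an FDR of 5%. The difference of the effects, Brd1+/- minus WT on the log2 scale, was positive in Siah3 (1.29), Nelfb (1.06), Shd (1.33), Depp1 (0.77), Zbtb16 (1.71), Tcp11l1 (0.76), Net1 (1.21) and Cuedc1 (0.63). It was negative in Zscan22 (−0.97), Mir6976 (−1.84), S100a3 (−1.15), Kcnj2 (−0.84), Rgs2 (−0.89), Kcnip2 (−0.91) and Pdp1 (−0.33). Without the 8 WT mice with high cortical markers, a fit with 2 WT vehicle mice, 3 of the 15 passed (Depp1, Zscan22 and Mir6976) and 13 had the same sign. With the cortical or the medium spiny neuron mean as a covariate 7 passed. The part of the cortical content in these differences was not tested further.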

How the results depend on the processing

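Of 62 named genes that passed, 28 passed under all 14 alternatives and 44 in all 15 fits that left out 1 mouse, and 0 changed sign. The 62 were chosen for passing, and these fits share most of their mice, so a kept sign is no independent evidence of direction. The 422 calls ranged from 290 (medium spiny neuron mean as covariate, sharing 165) to 510 (cortical mean), with 140 lower genes under the former and 132 higher genes when all 4 groups shared a fit. Leaving out 1 mouse gave 306 (vehicle 5) to 498 (IMN 6) calls, 141 to 297 higher (without IMN 2 and IMN 6) and 164 to 263 lower. The 0 genes at an FDR of 5% became 6 with the cortical, 8 with the oligodendrocyte and 4 with the endothelial mean as covariate, 4 in the fit of all 4 groups, and 0 to 6 with 1 mouse left out (6 without vehicle 1, 2 without IMN 6, 1 without vehicle 5). Arc, Depp1 and Egr1 were among them without vehicle 1, and Depp1 in each of the 4 alternatives. Glucocorticoid-responsive genes that rose numbered 6 with the medium spiny neuron covariate, 5 without the 3 IMN mice of high oligodendrocyte mean and 9 to 11 with 1 mouse left out. Immediate-early genes that fell numbered 4 without those 3 mice and 5 to 10 with 1 left out. The share of higher calls was 47.4%, 39.7% (quantile normalization) to 56.4% (endothelial covariate) over the 14 alternatives and 37.2% (without vehicle 1) to 59.6% (without IMN 6) with 1 mouse left out, so that which direction held more calls depended on the setting. Tsc22d3, at 0.15, was −0.13 with the oligodendrocyte covariate, −0.10 without the 3 mice and −0.019 to 0.33 with 1 left out. Junb, at −0.03, was 0.0040 with the endothelial covariate and −0.13 to 0.10 with 1 left out. The oligodendrocyte and endothelial covariates and the fits without 3 IMN or 8 WT mice were chosen after seeing the data.

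In WT the 1639 calls became 4798 with sample quality weights, 3424 in the fit of all 4 groups, 324 and 267 with the cortical and medium spiny neuron covariates, 429 without the 8 mice, and 905 to 3576 with 1 mouse left out (WT vehicle 5 and 8). The 951 interactions became 3458 with weights, 254 and 128 with those covariates, 145 without the 8 mice and 546 to 2571 with 1 left out (WT vehicle 1 and 8). The cause was not tested. Same-numbered mice of both Brd1+/- groups deviated together weakly (correlations of −0.0863 to 0.266, 2 of 7 best with their own number), so the numbers do not pair them, and a replicate block gave 491 calls, 270 of them among the 422. Depth is unknown from TPM, so low genes such as Depp1 and Siah3 carry a counting error that cannot be given.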

Other observations

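Cx3cl1 took separate levels in all 31 mice. The lower level ended at 194.8 TPM and the upper began at 536.7 TPM, with no mouse between them. The upper level held 6 of 7 vehicle and 2 of 8 IMN administered Brd1+/- mice, and 5 of 8 vehicle and 2 of 8 IMN administered WT mice.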
